A study of Oryctolagus cuniculus with 12 samples.

Results

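The 5 genes described here handle heme, iron and glutathione: HMOX1, CP, FTL, TFRC and GCLM. They were measured in the basilar artery of the rabbit, which carries blood along the ventral brain stem, after a bleed into the space around the brain (subarachnoid hemorrhage, SAH). The genes were chosen by their differences from the controls in these same arrays, and their array features were taken as every non-control feature that the gene names, accessions or descriptions of the array assign to them. That gave 12 features, all of which passed the filter on dim signal. The 5 genes are a part of 10196 genes named by at least 1 feature and of 7333 named by at least 1 feature bright enough to test.

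Total RNA from 12 samples was hybridised to 12 single-colour arrays, 3 in each of 4 groups. The control group is normal basilar artery, called day 0 in the series, and the other groups are basilar artery on day 3, day 5 and day 7 of SAH. How the bleed was made, whether controls had a sham operation, and the strain, age and sex of the animals are not given in the sources used here. The labels do not say that the replicates came from separate animals, so spreads and p-values measure only the variation between these samples, which may be technical.

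Heme oxygenase 1, the product of HMOX1, opens the heme ring and releases iron, carbon monoxide and biliverdin, and it is known for its induction in vessels and brain exposed to blood. Ferritin, built of light (FTL) and heavy chains, stores the released iron. Ceruloplasmin (CP) oxidises ferrous iron so that it can be loaded onto transferrin, and the transferrin receptor (TFRC) brings transferrin-bound iron into the cell. GCLM is the modifier subunit of glutamate-cysteine ligase, the enzyme that catalyses the first step of glutathione synthesis. Iron-regulatory proteins control the messages of ferritin and of the transferrin receptor in opposite directions, and the transcription factor NRF2 is known to act on HMOX1, FTL and GCLM.

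Each feature is a 60-base probe, and the probe sequences show what was measured for each gene. The positions are those of the array design, whose genome build the files do not name. The HMOX1 probe was named by its description and lies at chr4:86063316-86063375 on the minus strand. The CP probe lies at chr14:42982108-42982167 on the minus strand. FTL has a probe at chr9:73827627-73827684 and another at chr14:55110504-55110563, both on the minus strand. The second was assigned by a description of its transcript as a ferritin light chain, so it may read a near-identical copy of the gene, and its longest run of bases shared with the first is 9. TFRC has 3 neighbouring probes on the plus strand of chromosome 14, between 92671613 and 92671804, that do not overlap. The probes whose values stand for a gene below, and the second FTL probe, are as follows.
HMOX1 probe: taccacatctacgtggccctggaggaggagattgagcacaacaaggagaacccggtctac
CP probe: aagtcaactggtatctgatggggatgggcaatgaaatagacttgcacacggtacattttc
FTL probe 1: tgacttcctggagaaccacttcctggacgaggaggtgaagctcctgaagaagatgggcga
FTL probe 2: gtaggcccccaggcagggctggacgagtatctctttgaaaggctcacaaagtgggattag
TFRC probe 1: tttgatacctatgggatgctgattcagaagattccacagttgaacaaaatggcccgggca
GCLM probe 1: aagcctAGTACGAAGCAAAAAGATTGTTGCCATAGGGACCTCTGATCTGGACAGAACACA

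GCLM has 5 probes on the plus strand of chromosome 13, tiled 1 to 3 bases apart, so they are 1 target site and not 5 measurements of the message. Probe 1, above, starts at 70601504 and probe 2 ends at 70601569, and these are the outer members of the tile. Capitals in the GCLM lines mark the 54 bases that all 5 probes share.
GCLM probe 2: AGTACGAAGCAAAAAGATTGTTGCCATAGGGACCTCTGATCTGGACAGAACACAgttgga

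Levels are given as log2 of the signal divided by the 75th percentile of the array, so that 0 is a feature as bright as that percentile. They compare the arrays for 1 feature and do not rank features against each other. A feature counts as above background where the scanner software marked its spot so. Control replicate 2 stood apart: the scanner software marked 50.1% of its spots as well above background, where the other 11 arrays had between 58.2% and 64.0%, and 169 of its spots were flagged as outliers, where the others had 1 to 16. The lowest signal well above background was -2.66 on that array and between -4.24 and -3.72 on the others. Each slide carried 1 array of every group, always in the same position, so position on the slide and group cannot be told apart.

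HMOX1 was higher than in the controls on every day, and by processed signals its differences were larger than those of the other 4 genes. With normexp, an alternative background correction, CP differed more than HMOX1 on each day. Normexp was run with an offset of 50 added to every signal, where the arrays' 75th percentiles of processed signal lay between 127.2 and 191.1. The offset alone shrinks the differences of dim features, here and in the normexp values below. The HMOX1 level in the controls was -2.22, -2.92 and -2.28, and only 2 of the 3 control arrays read it well above background. On day 3 the levels were 0.55, 1.01 and 2.15. Every day 3 array lay above every control array, and day 3 had the widest spread of the 4 groups. On day 5 the levels were -0.13, -0.25 and 0.62, and on day 7 they were 0.26, 0.31 and 0.41. The day 5 and day 7 arrays also lay above every control array, and the highest day 5 array overlapped the lowest day 3 array.

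The mean of HMOX1 went from -2.47 ± 0.39 in the controls to 1.24 ± 0.82 on day 3 (SD, n = 3 each), a log2 difference of 3.71 (SE 0.37), or 13.1-fold. The difference was 2.56 on day 5, or 5.89-fold, and 2.80 on day 7, or 6.99-fold. Within the 3 slides it was 2.77, 3.93 and 4.43 on day 3, between 2.09 and 2.91 on day 5, and between 2.48 and 3.23 on day 7. With normexp, which pulls dim signals together, the 3 differences were 2.36, 1.39 and 1.58. Without control replicate 2 they were 3.49, 2.33 and 2.58.

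**Figure D1:**
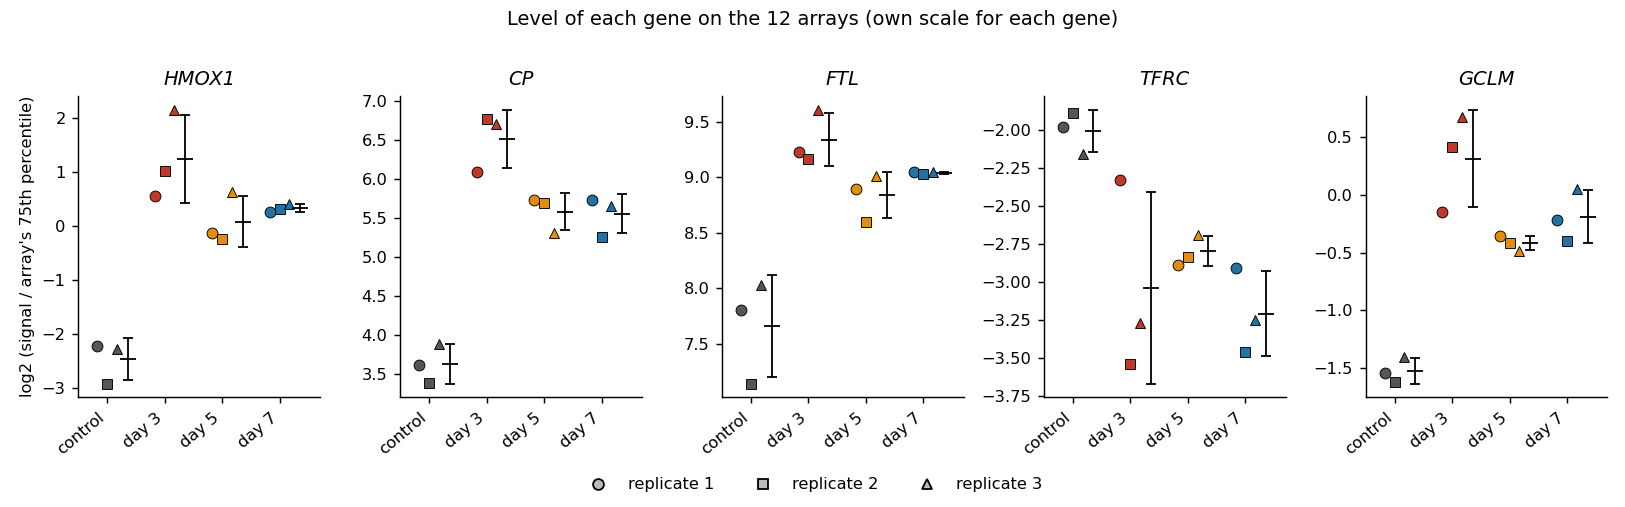
Level of each gene on the 12 arrays, as log2 of the signal over the array's 75th percentile, with the mean and SD of each group of 3 beside the points; each gene has its own vertical scale. HMOX1, CP, FTL and GCLM lie above the controls on every array of the 3 days, TFRC lies below them, and the day 3 means of the first 4 are the highest.

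Among the iron genes, the ferroxidase gene CP had the largest difference from the controls. Its level was 3.62, 3.39 and 3.89 in the controls and 6.09, 6.76 and 6.70 on day 3. On day 5 it was 5.73, 5.69 and 5.30, and on day 7 it was 5.73, 5.26 and 5.65. The controls lay below every other array, and all day 3 arrays lay above all day 5 and day 7 arrays. The log2 difference from the controls was 2.88 (SE 0.22) on day 3, which is 7.37-fold, then 1.94, or 3.84-fold, and 1.91, or 3.77-fold. Within slides it ranged from 2.47 to 3.37 on day 3, from 1.41 to 2.30 on day 5 and from 1.76 to 2.11 on day 7. With normexp the differences of CP were 2.89, 1.65 and 1.85.

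FTL, which encodes the light chain of the iron store ferritin, was read by both of its probes. Probe 1 had levels of 7.80, 7.14 and 8.03 in the controls and 9.23, 9.17 and 9.61 on day 3. It had 8.90, 8.60 and 9.01 on day 5 and 9.05, 9.03 and 9.05 on day 7. The groups did not overlap with the controls, whose lowest array was control replicate 2, and the day 7 arrays had an SD of 0.01. The log2 difference was 1.68 (SE 0.22), 1.18 and 1.39 on the 3 days, or 3.21-fold, 2.27-fold and 2.61-fold. Without control replicate 2 it was 1.42, 0.92 and 1.13.

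FTL probe 2 read 4.38, 3.82 and 4.71 in the controls and 5.90, 6.0 and 6.50 on day 3. It read 5.57, 5.33 and 5.72 on day 5 and 5.71, 5.73 and 5.82 on day 7. Its differences from the controls, 1.83, 1.24 and 1.45, lay within 0.15 of those of probe 1. The order of the groups was the same for both probes, with day 3 highest and the controls lowest. Whether the probes read 1 message or several near-identical ones was not tested.

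TFRC, the transferrin receptor gene, was the one of the 5 that lay below the controls. Probe 1 had levels of -1.98, -1.89 and -2.16 in the controls and -2.33, -3.54 and -3.27 on day 3. It had -2.89, -2.84 and -2.69 on day 5 and -2.91, -3.46 and -3.25 on day 7. The groups did not overlap with the controls, but on day 3 the highest array lay close to them while the others were far below. The log2 difference was -1.03 (SE 0.27) on day 3, -0.79 on day 5 and -1.19 on day 7, so that the controls were 2.05-fold, 1.73-fold and 2.29-fold higher.

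These TFRC signals are dim, and the size of the difference depended on the probe and on the background correction with its offset. An offset of 50 alone shrinks differences between signals this dim, so the normexp values are no separate reading of their size. Probe 2 lay below the controls by differences of -0.99, -1.22 and -1.29 on the 3 days. Probe 3 had -1.5, -1.67 and -1.65, but it was well above background on only 1 of 3 day 3 arrays, 2 of 3 day 5 arrays and 2 of 3 day 7 arrays. With normexp the differences of probe 1 shrank to -0.36 on day 3 and -0.40 on day 7, and on day 5 the direction turned, to 0.04. Within slides, probe 1 ranged from -1.65 to -0.34 on day 3, from -0.95 to -0.53 on day 5 and from -1.57 to -0.92 on day 7.

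GCLM, on the glutathione side, had levels of -1.54, -1.62 and -1.4 for probe 1 in the controls. On day 3 they were -0.15, 0.41 and 0.67, on day 5 they were -0.36, -0.42 and -0.49, and on day 7 they were -0.22, -0.40 and 0.05. The arrays of each day lay above all controls, and the day 5 arrays lay below all day 3 arrays. The log2 difference was 1.83 (SE 0.20) on day 3, or 3.55-fold, 1.1 on day 5, or 2.14-fold, and 1.33 on day 7, or 2.51-fold. Over the 5 overlapping probes it ran from 1.83 to 1.98, from 1.1 to 1.32 and from 1.33 to 1.53. With normexp the differences of probe 1 were 1.16, 0.71 and 0.81.

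**Figure D2:**
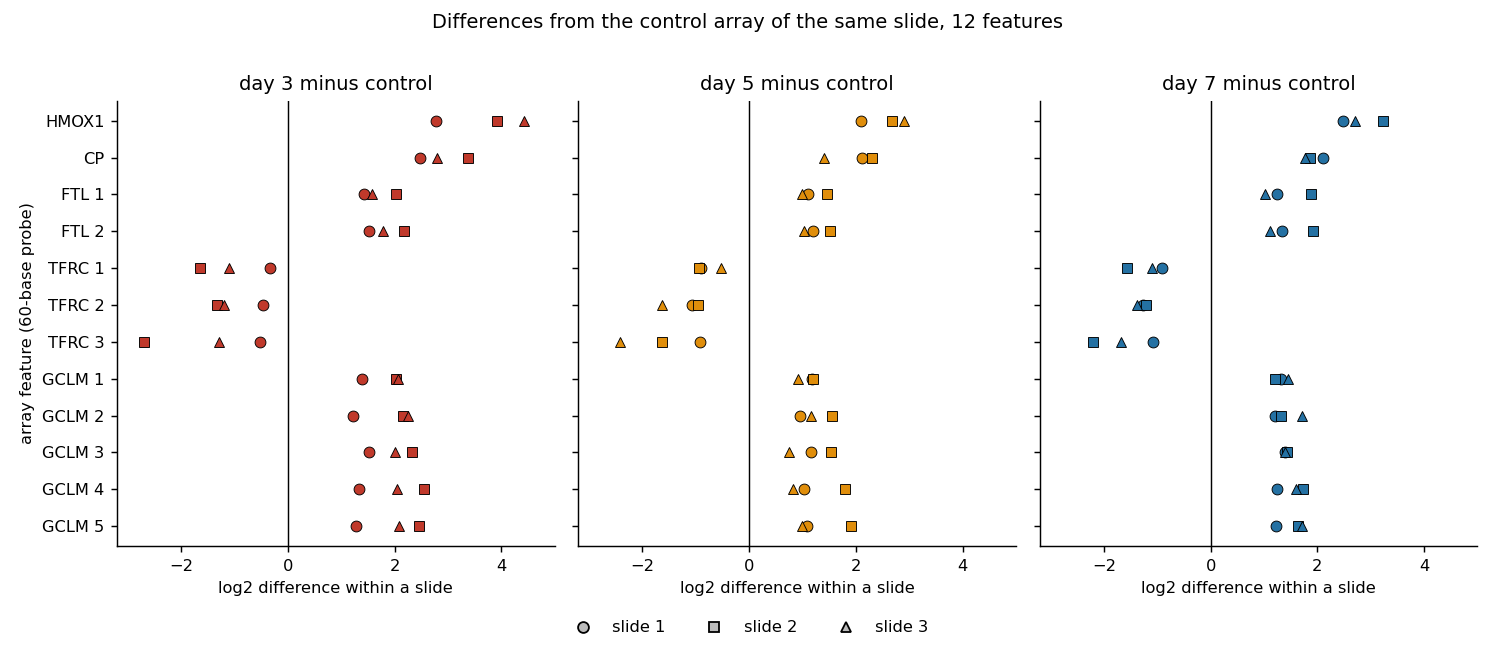
Log2 difference between each day's array and the control array of the same slide, for the 12 features of the 5 genes, with 1 symbol per slide. On each of the 3 days the 9 features of HMOX1, CP, FTL and GCLM lie right of 0 on all 3 slides and the 3 features of TFRC lie left of 0.

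All 12 features, and so all 5 genes, had arrays that did not overlap with the controls on each of the 3 days. Of all 26434 features tested, 25.1% had no overlap on day 3, 16.5% on day 5 and 21.3% on day 7. The genes were chosen on these differences, which are therefore given without a test. The 3 comparisons share their control arrays.

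The days were also compared with each other, a contrast that the choice of the genes did not use directly, although the day 3 arrays entered that choice. After adjustment over all features, 0 of the 12 features passed limma's test at 0.05 in any of the 3 comparisons between days. At an unadjusted p below 0.05 there were 9 of 12 for day 5 against day 3, 4 of 12 for day 7 against day 3 and 0 of 12 for day 7 against day 5. Of all features tested, 6.98%, 11.2% and 1.57% had such a p in these comparisons. The 9 include all 5 GCLM probes, which are 1 target site. For the 4 genes above the controls, a choice that used the day 3 arrays favours levels that are lower on the other days. For TFRC, which lay below the controls, it favours higher levels. These counts are therefore no evidence of a fall from day 3. After adjustment limma called 0.0113% of all features between day 5 and day 3, 0.144% between day 7 and day 3 and 0% between day 7 and day 5.

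Day 5 lay below day 3 for 11 of the 12 features. HMOX1 differed by -1.15 (95% interval -1.96 to -0.34, limma adjusted p = 0.485). CP differed by -0.94 (-1.43 to -0.45, limma adjusted p = 0.253). GCLM differed by -0.73 (-1.18 to -0.29, limma adjusted p = 0.37) and FTL probe 1 by -0.50 (-0.99 to -0.01, limma adjusted p = 0.706). TFRC probe 1, the exception, differed by 0.24 (-0.35 to 0.83, limma adjusted p = 0.943), while TFRC probes 2 and 3 differed by -0.24 and -0.16. The intervals are per gene and are not adjusted for the number of features.

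Day 7 lay below day 3 for all 12 features, which for TFRC is further from the controls. CP differed by -0.97 (-1.46 to -0.48, limma adjusted p = 0.164), HMOX1 by -0.91 (-1.72 to -0.10, limma adjusted p = 0.397) and GCLM by -0.50 (-0.95 to -0.06, limma adjusted p = 0.394). FTL probe 1 differed by -0.30 (-0.79 to 0.20) and TFRC probe 1 by -0.16 (-0.75 to 0.43). Between day 7 and day 5 the differences of the 5 genes lay between -0.40, for TFRC, and 0.25, for HMOX1, and limma's adjusted p was 1 for each. For HMOX1 the interval of that difference reached from -0.56 to 1.06 with 3 arrays per group.

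These differences moved with single arrays. Without day 3 replicate 3, the highest array for HMOX1, the difference of HMOX1 was -0.70 for day 5 against day 3 (limma adjusted p = 1) and -0.45 for day 7 against day 3 (limma adjusted p = 0.902). Without it the day 7 differences from day 3 of GCLM and FTL probe 1 were -0.32 and -0.16. Without day 3 replicate 1, TFRC probe 1 lay higher on day 7 than on day 3, by 0.20. With limma's array weights, which count noisy arrays less, the adjusted p for day 5 against day 3 was 0.0262 for HMOX1, 0.026 for CP and 0.0359 for GCLM, and for day 7 against day 3 it was 0.0397 for CP. The weights raised the calls among all 26434 features as well, from 3 to 861 for day 5 against day 3 and from 38 to 280 for day 7 against day 3. With normexp the difference of CP between day 5 and day 3 was -1.25 (limma adjusted p = 0.0413), and 56 of all features were called in that comparison. On the log2 scale, the difference of HMOX1 from the controls on day 5 was 68.9% of that on day 3, and the shares were 67.4% for CP, 70.4% for FTL and 60% for GCLM. On day 7 they were 75.6%, 66.4%, 82.4% and 72.6%, and for TFRC, whose difference was negative, 116%.

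**Figure D3:**
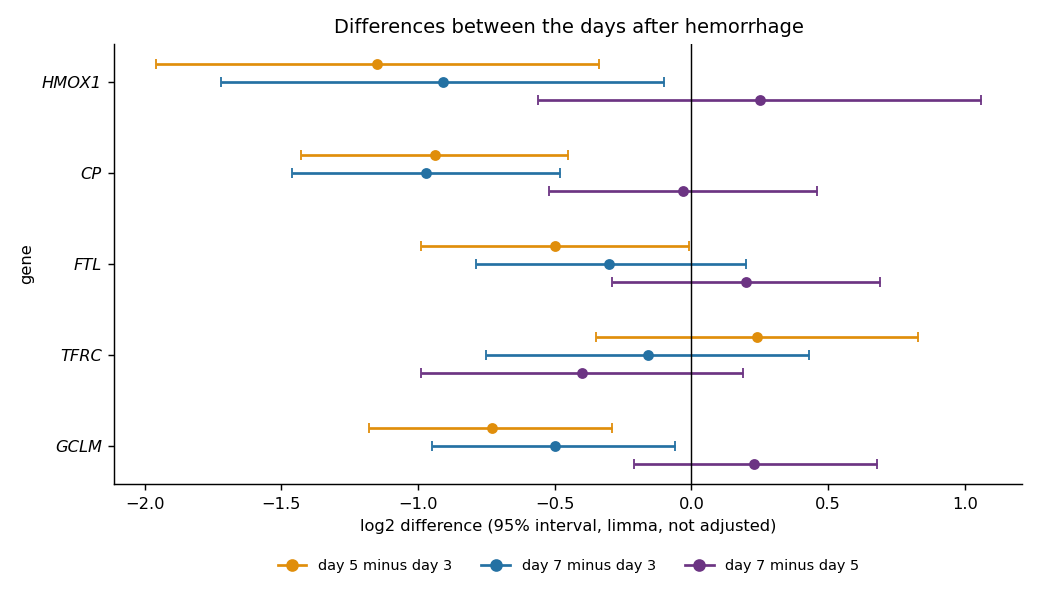
Log2 differences between the days for the 5 genes, 1 feature per gene, with the unadjusted 95% interval of the limma fit of all 12 arrays. The intervals of HMOX1, CP and GCLM for day 5 and day 7 against day 3 lie left of 0, those of TFRC cover 0, and the intervals for day 7 against day 5 cover 0 for all 5 genes.

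The other genes of these pathways were taken from 4 lists, of heme capture, breakdown and synthesis, of iron handling, of glutathione, and of NRF2 and antioxidant enzymes. They hold 120 genes, of which 69 had a feature bright enough to test. The lists were chosen with earlier results of these data known, so the shares below describe them and are no independent support. On day 3, 11 of the 69 (15.9%) rose by limma's test and 1 (1.45%) fell, against 4.87% and 2.06% of all 7333 named genes tested. The median log2 difference of the 69 was 0.20 and that of all named genes was 0.00. On the 3 slides the median of the 69 was 0.15, 0.27 and 0.23. Without control replicate 2, 6 rose and 2 fell, and without control replicate 1, day 3 replicate 2 or day 3 replicate 3 the number that rose was 5, 7 or 4. In the same order of left-out arrays, limma called 1173, 979, 1110 and 789 of all 26434 features in either direction.

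Of the 17 heme genes tested, 2 rose on day 3. HP, haptoglobin, which binds free hemoglobin, rose by 5.76 (SE 0.55, limma adjusted p = 0.000174). Its levels were -0.14, -0.04 and 1.87 in the controls and 6.20, 6.06 and 6.71 on day 3. SLC46A1, a transporter of folate and heme, rose by 1.5 (SE 0.37, limma adjusted p = 0.0368). It was well above background on 2 of 3 controls, control replicate 2 was its lowest array, at -4.76, and without that array its call was lost, with a difference of 0.99 and a limma adjusted p = 0.0515. With normexp its difference was 0.25 (limma adjusted p = 0.588), and in all its call was lost under 12 of 19 alternatives. HMOX2, the constitutive heme oxygenase, had a difference of 0.32 (limma adjusted p = 0.262), and BLVRA, which turns biliverdin into bilirubin, had 0.96 (limma adjusted p = 0.106). BLVRA was well above background on 2 of 3 controls, and control replicate 2 was its lowest array, at -3.02. HMOX2 and BLVRA were named for their place beside HMOX1, after their values were seen.

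Of the 16 other iron genes tested, 3 rose on day 3. STEAP2, a metalloreductase that reduces iron, rose by 1.53 (SE 0.27, limma adjusted p = 0.00782). ACO1, which without its iron-sulfur cluster acts as an iron-regulatory protein, rose by 1.04 (SE 0.26, limma adjusted p = 0.0395). HJV, hemojuvelin, a co-receptor in the control of hepcidin, rose by 0.72 (SE 0.19, limma adjusted p = 0.0467). HJV was well above background on 2 of 3 controls. Without control replicate 2 the difference of ACO1 was 1.02 (limma adjusted p = 0.091) and that of HJV was 0.66 (limma adjusted p = 0.118), so both calls were lost. In all, the call of ACO1 was lost under 13 of 20 alternatives and that of HJV under 12 of 19. With normexp the differences were 0.48 for ACO1 (limma adjusted p = 0.12) and 0.16 for HJV (limma adjusted p = 0.77). IREB2, the other iron-regulatory protein gene, chosen after its values were seen, had differences of 0.10, 0.18 and 0.22 on the 3 days. The ferritin heavy chain and the iron exporter ferroportin were not analysed here.

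Of the 17 other glutathione genes tested, 4 rose on day 3. GGT5, a gamma-glutamyltransferase that acts on glutathione conjugates, rose by 1.67 (SE 0.22, limma adjusted p = 0.00144). MGST1, a microsomal glutathione transferase, rose by 1.25 (SE 0.28, limma adjusted p = 0.0237). The peroxidase genes GPX1 and GPX8 rose by 1.06 (SE 0.17, limma adjusted p = 0.00489) and 0.83 (SE 0.19, limma adjusted p = 0.0249). The call of GPX8 was lost without control replicate 2 (0.83, limma adjusted p = 0.0592) and that of MGST1 without control replicate 1 (1.02, limma adjusted p = 0.0832). In all, the call of GPX8 was lost under 6 of 20 alternatives and that of MGST1 under 4 of 20. GCLC, which encodes the catalytic partner of GCLM, had levels of -0.17, 0.02 and 0.98 in the controls and 0.37, 0.81 and 0.97 on day 3. The groups overlapped, and its difference was 0.44 (SE 0.28, limma adjusted p = 0.4). GSS, which catalyses the last step of glutathione synthesis, had -0.30 (limma adjusted p = 0.651). GCLC and GSS were named for their place beside GCLM, after their values were seen.

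Of the 19 NRF2 and antioxidant genes tested, 2 rose and 1 fell on day 3. PRDX4, a peroxiredoxin, rose by 0.91 (SE 0.21, limma adjusted p = 0.0284) and NQO1, a quinone reductase, by 0.86 (SE 0.22, limma adjusted p = 0.0378). Without control replicate 2 both calls were lost, with differences of 0.90 for PRDX4 (limma adjusted p = 0.0676) and 0.88 for NQO1 (limma adjusted p = 0.0767). In all, the call of PRDX4 was lost under 4 of 20 alternatives and that of NQO1 under 9 of 20. TXNIP, which binds and inhibits thioredoxin, fell by 1.0 (SE 0.15, limma adjusted p = 0.00293), with 1.0, 0.68 and 0.61 in the controls and -0.26, -0.14 and -0.31 on day 3. NFE2L2, the gene of NRF2, had a difference of 0.23 (limma adjusted p = 0.349) and KEAP1, the gene of its inhibitor, had 0.10 (limma adjusted p = 0.812). NFE2L2 and KEAP1 were named for their roles, after their values were seen.

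**Figure D4:**
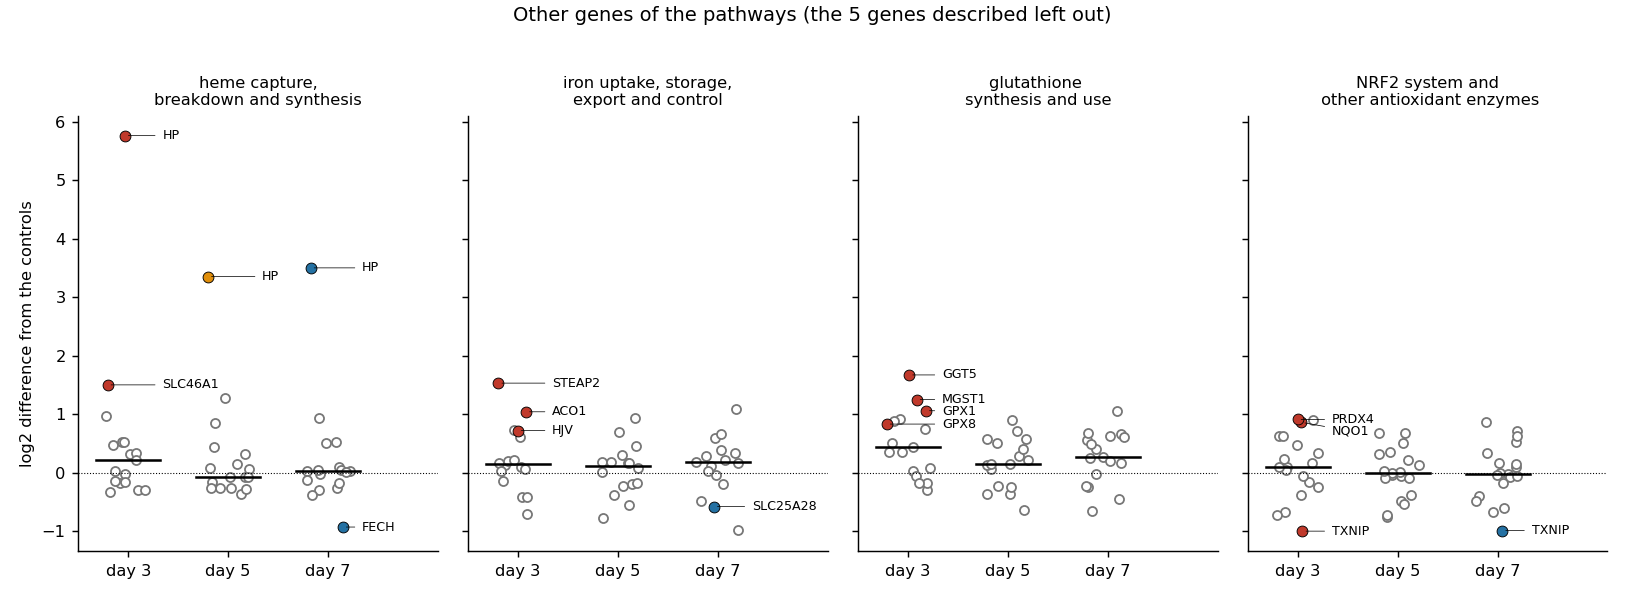
Log2 difference from the controls of the other pathway genes on the 3 days, by list; filled and named points passed limma's test at an adjusted p below 0.05, open points did not, and the bar is the median of the list. Named points are most frequent on day 3, with 11 above 0, and HP is the highest on all 3 days.

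On day 5, 1 of the 69 pathway genes rose and 0 fell by limma's test, against 1.92% and 0.218% of all named genes, while 17 had an unadjusted p below 0.05 in either direction. Of all features tested, 14.4% had such a p on day 5. On day 7, 1 of the 69 rose (1.45%) and 3 fell (4.35%), against 1.96% and 0.586% of all named genes. HP was the gene that rose, by 3.35 (SE 0.55, limma adjusted p = 0.0102) on day 5 and by 3.50 (SE 0.55, limma adjusted p = 0.00863) on day 7. TXNIP fell by 0.99 on day 7 (SE 0.15, limma adjusted p = 0.00698). SLC25A28, a mitochondrial iron importer, fell by 0.58 (SE 0.13, limma adjusted p = 0.0496), a call that was lost under 13 of 20 alternatives (limma adjusted p up to 0.162).

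In lists with 0 calls on a day, the 2 genes with the smallest p were these. On day 5 the iron genes STEAP2 and SLC25A28 had differences of 0.94 and -0.55 (limma adjusted p = 0.125 and 0.0673). The glutathione genes MGST1 and GPX1 had 0.90 and 0.58 on day 5 (limma adjusted p = 0.148 and 0.134) and 1.05 and 0.61 on day 7 (limma adjusted p = 0.0791 and 0.0932). In the NRF2 and antioxidant list, PGD, an enzyme of the pentose phosphate pathway, had -0.75 and TXNIP had -0.53 on day 5 (limma adjusted p = 0.0628 and 0.117).

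FECH, which inserts iron into protoporphyrin to form heme, also fell on day 7 (limma adjusted p = 0.0317), but no day 7 array and 2 of 3 control arrays read it well above background, so no fold is given. With normexp its difference was -0.01 (limma adjusted p = 0.991). With the slide as a block, 3 genes rose on day 5 and 7 on day 7, and limma called 662 and 954 of all 26434 features in either direction. Between the days 0 of the 69 genes passed limma's test, while 9, 12 and 3 had an unadjusted p below 0.05 for day 5 against day 3, day 7 against day 3 and day 7 against day 5. Of all features tested, 6.98%, 11.2% and 1.57% had such a p. The median difference of the 69 genes between day 5 and day 3 was -0.19.

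The genes whose levels were most like those of each of the 5 were found by Pearson's r over the 12 arrays, among 7305 genes with 1 feature each. This likeness spans the 4 groups, so it includes their differences from the controls and is a description without a test. For HMOX1 they were S100A3, NDC80, FTL, LOC100359306 and TACC3, with r from 0.97 to 0.972. S100A3 was well above background on 0 of 3 controls, and UBE2C, named for CP below, on 1 of 3, so their likeness rests in part on control values near background. For CP they were H1-1 (0.992), GCLM (0.977), STT3A, NDC80 and UBE2C. NDC80, TACC3 and UBE2C act in mitosis, and H1-1 is a linker histone. For FTL they were HMOX1 (0.971), SAA3, VAMP8, LOC100345720 and CD63, with a lowest r of 0.961. For GCLM they were STT3A (0.982), CP, H1-1, HMOX1 and NDC80. For TFRC the likeness was lower: ARHGEF40 (0.914), NEURL1, DYNC1I1, OBSL1 and ROCK2 (0.870).

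Markers of macrophages, the cells that take up red cells and carry much heme oxygenase and ferritin, lay mostly above the controls on each day. Of 12 marker genes, 7 were tested, and 5 of these 7 rose on each of the 3 days by limma's test. CD68, a lysosomal glycoprotein, rose by 2.17, 1.88 and 2.0 (limma adjusted p = 0.000126, 0.00106 and 0.000618), and the scavenger receptor gene MSR1 rose by 2.47, 2.34 and 2.22 (limma adjusted p = 0.00966, 0.0253 and 0.0312). MSR1 was well above background on 1 of the 3 controls. CD14, MRC1 and C1QB, named after their values were seen, also rose on each day, but least on day 3. Their differences were 1.44, 1.81 and 1.55 for CD14, 1.37, 1.84 and 2.04 for MRC1, and 1.33, 1.71 and 1.54 for C1QB. ITGAM, an integrin gene named after its values were seen, did not pass the test, with -0.09, -0.13 and 0.19, and MARCO was not well above background. The linear signals of the 7 markers, divided by each array's 75th percentile and summed, came to between 7.96 and 12.0 in the controls. On day 3 the sum lay between 24.0 and 29.2, on day 5 between 28.5 and 40.3, and on day 7 between 26.4 and 34.0, so no array of any day overlapped with the controls. The mean sum was 27.3 on day 3, 33.5 on day 5 and 30.8 on day 7, while HMOX1, CP, FTL and GCLM were highest on day 3. The part of these cells in the levels of the 5 genes was not tested. In bulk RNA, fewer cells of a type and less RNA per cell cannot be told apart.

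Within the groups, the signs of the deviations of HMOX1 and FTL mostly matched those of the macrophage markers, though some deviations were very small. On day 7 they were -0.07, -0.02 and 0.08 for HMOX1 and 0.01, -0.01 and 0.01 for FTL. The deviation of an array from the mean of its group had the same sign as that of the mean of the 7 markers on 11 of 12 arrays for HMOX1 and on 11 of 12 for FTL. For CP and TFRC it had the same sign on 7 of 12 each, and for GCLM on 6 of 12. CP and GCLM deviated in the same direction on 11 of 12 arrays. On day 3 replicate 1 all of HMOX1, CP and GCLM lay below their group's mean, by deviations of -0.68, -0.42 and -0.46, while TFRC lay above it, at 0.72. Deviations within a group of 3 sum to 0 and are not independent, and arrays of 1 slide share that slide. HMOX1, FTL and the markers all lay below their group's mean on every replicate 2 array and above it on every replicate 3 array. Slide and marker level therefore cannot be told apart on those arrays. The share of all genes with such shared signs was not computed. The counts therefore do not show that HMOX1 and FTL follow the markers more than other genes do.

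**Figure D5:**
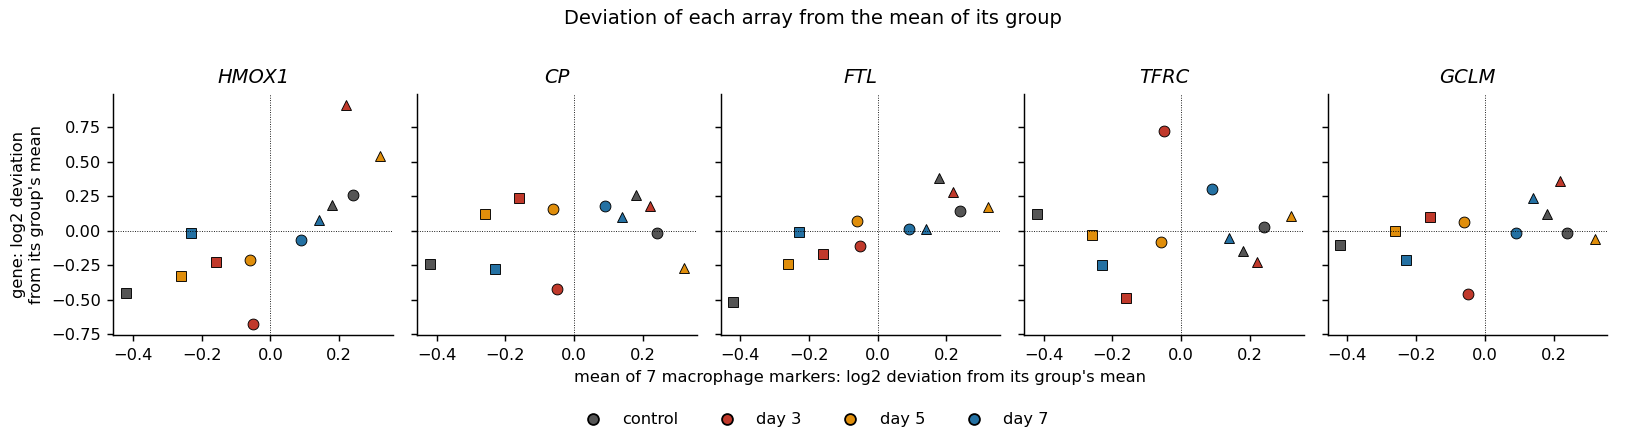
Deviation of each array from the mean of its group, on the log2 scale, for each of the 5 genes against the mean of 7 macrophage markers; colours are groups, and circles, squares and triangles are replicates 1, 2 and 3. HMOX1 and FTL share the sign of the markers on 11 of 12 arrays, while CP and TFRC do so on 7 and GCLM on 6. For HMOX1 and FTL all squares lie left of and below 0, and all triangles lie right of and above 0.

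Markers of 7 other cell types were read in the same way. The summed signal of 7 smooth muscle markers, which check the labelled tissue, was 543 to 736 in the controls and 350 to 480 over the 3 days, and 1 of the 7 fell by limma's test on day 3 and 0 on day 5 and day 7, while 4, 5 and 7 had an unadjusted p below 0.05. The 2 red cell genes tested, of 7 on the list, had a summed signal between 26.4 and 49.4 in the controls. The sum lay between 19.0 and 93.7 on day 3, between 46.4 and 88.9 on day 5 and between 71.9 and 113 on day 7, where it no longer overlapped with the controls. The alpha-globin gene HBA had differences of 0.17, 0.97 and 1.4 and did not pass the test (limma adjusted p = 0.884, 0.407 and 0.164). The sums of 3 neutrophil markers overlapped between the controls, at 0.907 to 2.27, and day 3, at 1.13 to 2.19, and 0 of the 3 passed limma's test on any day, adjusted or not. Of 5 fibroblast and leptomeningeal markers, 2 rose and 1 fell on day 3, 1 rose on day 5 and 2 rose on day 7. COL1A1, a collagen gene, rose by 1.56 (limma adjusted p = 0.00254) and PTGDS, a leptomeningeal enzyme gene, fell by 1.59 (limma adjusted p = 0.0029). Of 4 endothelial markers and 1 neural marker tested, 0 passed limma's adjusted test on any day, while 1 of each had an unadjusted p below 0.05 on day 3 and on day 7. Of 3 T and B cell markers, 1 rose on day 3, CD79B, and 0 on day 5 and day 7. CD79B was well above background on 0 of 3 controls and passed the filter on dim signal only through day 3, so no fold is given. At an unadjusted p below 0.05 there were 1, 0 and 1 of the 3 markers on the 3 days. Of all features tested, 21.5%, 14.4% and 17.7% had such a p on day 3, day 5 and day 7.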

How the data were processed

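RNA of 12 basilar artery samples was measured on 12 single-colour arrays on 3 slides. Total RNA was extracted with TRIzol and labelled with Cy3, per the labels. The authors deposited 1 scanner file per array. The submitters' processing notes name Agilent Feature Extraction 9.5.1.1. Its processed signal is an intensity, background-corrected per the file headers, and the mean and local background signals are raw intensities. Per the file headers, the spot flags are of the kind other, 0 or 1 per spot. The authors' value table also holds an intensity, with the same median, 27.0, in every column and an r of 0.994 or more with the log2 processed signals, so it is on a linear scale and scaled between arrays. The arrays keep no depth beyond signal over background, and 3 per group limit the precision.

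Control spots were left out and outlier spots set to missing. Each array's 75th percentile was subtracted on the log2 scale, and repeated spots were averaged. Testing required a signal well above background on every array of 1 group or more, which 26434 of 43623 probes met. Probes were named through the array's accessions, symbols and descriptions and RefSeq names of assembly mOryCun1.1: 22288 had 1 gene, 200 several and 21135 none. Where several tested probes name a gene, the brightest over the 12 arrays gives its value. All 12 arrays were fitted with limma 3.58.1 in R 4.3.3, two-sided, with no block, and p-values were adjusted by Benjamini-Hochberg over all tested probes, with a threshold of 0.05. The procedure was tested on simulated data.

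The members, the 4 pathway lists and 8 marker lists were chosen with earlier results of these data known, and 1 gene of the lists is not reported here. Named pathway genes are up to 4 called genes per list and day with the smallest adjusted p, or the 2 with the smallest p. The 5 genes most like each member, and up to 2 genes per marker list, are also named, and genes named otherwise are marked as such. Alternatives were normexp with an offset of 50, quantile normalization, the value table, no filter or a filter on all 12 arrays, the slide as a block, array weights, the mean of a gene's probes, and leaving out each array.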

Additional observations from a re-analysis of the deposited data

How the results depend on the processing

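Each difference of the 5 genes from the controls kept its direction under every alternative run, except that of TFRC on day 5, which was 0.04 with normexp. With normexp the differences of HMOX1 were 2.36, 1.39 and 1.58 on day 3, 5 and 7, those of GCLM 1.16, 0.71 and 0.81, that of CP on day 5 was 1.65, and those of TFRC on day 3 and day 7 were -0.36 and -0.40. The normexp offset of 50 alone shrinks the differences of dim features. The median of all probes on day 5 was 0.11 with normexp and 0.04 in the fit as reported. With the mean of its 3 probes, TFRC on day 5 was -1.23. Leaving out single arrays gave HMOX1 on day 3 a range of 3.26 to 4.05. Between days, the comparison of day 5 with day 3 was called with array weights for HMOX1 (-1.19), CP (-0.87) and GCLM (-0.69), that of day 7 with day 3 for CP (-0.99), and normexp called CP on day 5 against day 3 (-1.25). The cause was not tested, and array weights raised the calls among all probes from 3 to 861 for day 5 against day 3.

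The count of pathway genes called higher on day 3, 11 in the fit as reported, was 4 with no filter on dim probes, and leaving out single arrays gave 4 to 13. The lowest count came without day 3 replicate 3, and it was 5 without control replicate 1, 6 without control replicate 2 and 7 without day 3 replicate 2. The count called lower on day 3 was 1 to 2 with single arrays left out. Of all features, in either direction, limma called 974 of 43623 on day 3 with no filter, and 789 to 1943 of 26434 with single arrays left out. The calls of HP, GGT5, GPX1, STEAP2 and TXNIP on day 3 held under all 20 alternatives. On day 5 the count called higher was 4 with array weights, 2 with the mean of a gene's probes and 1 to 2 with single arrays left out. The count called lower on day 5 was 1 with quantile normalization and with the authors' value table, 2 with array weights and 0 to 1 with single arrays left out. Of all 26434 features, limma called 1368 on day 5 with array weights, 583 with quantile normalization, 571 with the value table and 280 to 685 with single arrays left out. With the mean of a gene's probes it called 345 of 18141. On day 7 the count called higher was 6 with array weights, 2 with the mean of a gene's probes and 1 to 6 with single arrays left out, and the count called lower was 1 with normexp, 1 with no filter and 1 to 3 with single arrays left out. Of all 26434 features, limma called 1388 on day 7 with array weights, 253 with normexp and 229 to 1692 with single arrays left out. It called 390 of 18141 with the mean of a gene's probes and 305 of 43623 with no filter.

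Samples with the same replicate number share a slide. Over 18 same-number pairs the correlation of deviations ran from -0.153 to 0.387, with a median of 0.109 and 10 of 18 over 0.1, against a median of -0.041 and 2 of 36 over 0.1 between other numbers. Since not every pair was over 0.1, the fit as reported has no block. With the replicate block the count of pathway genes called higher was 3 on day 5 and 7 on day 7, where limma called 662 and 954 of all 26434 features. No comparison of the 5 genes between days passed the test with the block (lowest limma adjusted p = 0.225, for CP on day 7 against day 3). Arrays give no read depth, and signals near background, such as those of TFRC and FECH, limit the size of a difference that can be read.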
